A study of Mus musculus with 6 samples.

Results

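The G2 and M phase genes described here are 55 genes of mitotic entry, spindle assembly, chromosome attachment and cytokinesis. They form a fixed list of symbols, chosen with earlier results of these data known, and were looked up in the deposited gene count table. All 55 were found among its 21233 genes, and all 55 passed the filter on low counts that left 13255 genes for testing. RNA was sequenced from mouse Th9 cells, CD4 T helper cells known for secreting interleukin 9, in 3 libraries from sorafenib-treated cells and 3 libraries from control cells that had no sorafenib. Sorafenib is a small-molecule inhibitor of RAF kinases and of several receptor tyrosine kinases. The dose, the time of treatment, any vehicle given to the controls, the mouse strain and the way the Th9 cells were made are not stated in the labels. Replicates carry numbers, with no word on whether each was its own culture or mouse, and the p-values below therefore speak only of the scatter among these libraries, part of which may be technical.

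Cells that divide make these transcripts late in the cycle. Cyclin A and cyclin B activate Cdk1 to start mitosis, Polo and Aurora kinases build the spindle, and the spindle assembly checkpoint holds back the anaphase-promoting complex (APC/C) until every chromosome is attached. The APC/C then has securin and the cyclins destroyed, the chromatids part, and the central spindle guides the cleavage furrow. Most of these genes are transcribed together from G2 onward under FoxM1, B-Myb and the MuvB core, and are held down in resting cells by the DREAM complex. In activated T cells, which divide fast, these transcripts are widely used as a measure of how much of a culture is cycling. These are bulk libraries, in which more cells in G2 or M and more RNA of these genes per cell cannot be told apart.

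Total counts were 36981476 to 38126521 per library, and a count of 0 allowed up to 0.0766 to 0.0871 CPM at 3 counts, a limit that covers counting error only. CPM here are counts scaled to a fixed library size with TMM factors, which adjust for composition. The cells carried T cell transcripts, with the 6 measured T cell markers summing to 1509 to 1581 CPM in sorafenib and 1799 to 1824 CPM in control libraries. Il9 averaged 266 ± 15.4 CPM in sorafenib cells and 192 ± 18.8 CPM in control cells (SD, n = 3 each). Control replicate 2 stood apart from its group: over genes with at least 10 counts in the pair, the chi-square per gene was 58.03 between it and control replicate 1 and 47.4 between it and control replicate 3, while control replicates 1 and 3 differed by 14.5 and the sorafenib pairs by 5.87 to 12.7. Pairs of a sorafenib and a control library differed by 51.0 to 63.3. Control replicate 2 thus differed from its own group about as much as sorafenib libraries differed from control libraries. Ribosomal protein genes took 17.5% of the counts of control replicate 2, against 14.2% and 13.7% in control replicates 1 and 3. The part of this library's difference in the results below was not tested, and the log2 fold change without it is given for each member whose estimate moved by over 1.5 times or whose call changed.

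Transcripts of the G2 and M phase genes were higher with sorafenib. Of the 55 genes, 29 were called higher and 1 lower at an adjusted p under 0.05 (edgeR's quasi-likelihood test, Benjamini-Hochberg adjustment over all 13255 tested genes), where 8.51% of all tested genes were called higher and 9.43% lower. The other 25 were not called, and 21 of these had a log2 fold change above 0. Thus 50 of 55 estimates were positive, against 48.3% over all tested genes. The median log2 fold change was 0.42 (quartiles 0.30 and 0.50), or 1.33-fold, while the median over all tested genes was -0.01. The changes were modest in size, with 5 of 55 genes more than 1.5-fold higher and the largest rise 1.7-fold. The 3 sorafenib libraries all exceeded the 3 control libraries for 37 of the 55 genes, against 18.3% of all tested genes. Because the list was chosen with earlier results of these data known, these shares describe it and are no independent test.

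**Figure D1:**
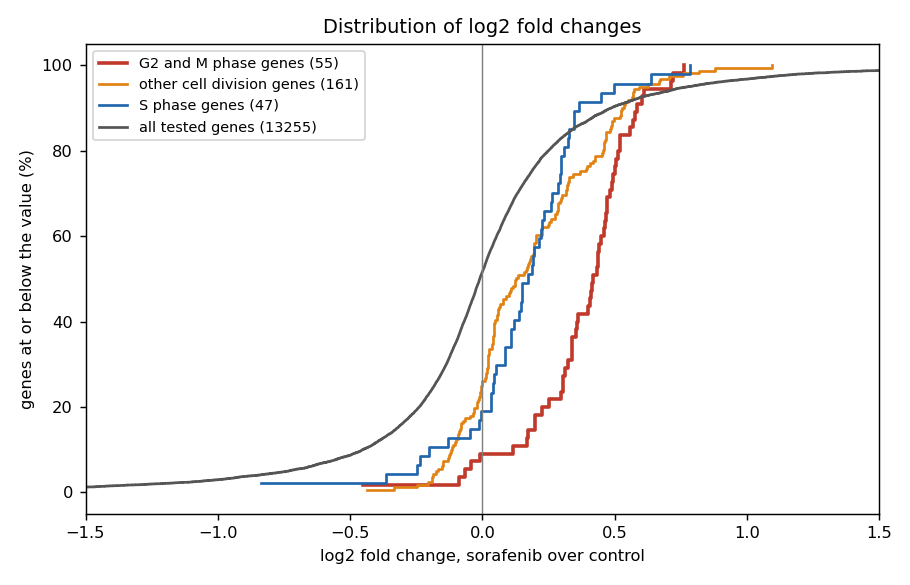
Cumulative distribution of the log2 fold change (sorafenib over control, horizontal axis) as the percentage of genes at or below each value, for the 55 G2 and M phase genes, 161 other cell division genes, 47 S phase genes and all 13255 tested genes; values beyond ±1.5 are not drawn. The curve of the G2 and M phase genes lies to the right, with its median at 0.42, while that of all tested genes is at -0.01.

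Summed over the 55 genes, the level was 1577, 1545 and 1561 CPM in sorafenib libraries 1 to 3, against 1363, 1170.1 and 1298 CPM in control libraries 1 to 3. The groups did not overlap, and the mean of the sorafenib libraries was 1.22 times that of the control libraries (1561 ± 15.7 and 1277 ± 97.9 CPM, SD, n = 3 each). The sum was lowest in control replicate 2, in which 39 of the 55 genes had their lowest value of all 6 libraries. The share of all tested genes lowest there was not counted. The median log2 deviation from each gene's mean in that library was -0.36 over the 55 genes and 0.01 over all tested genes. Without that library 33 of the 55 genes were called higher and 1 lower, where 15% of 13591 tested genes were called higher, and the median log2 fold change was 0.32. The sorafenib libraries also lay above control replicates 1 and 3 alone for 39 of the 55 genes. The share of all tested genes that did so was not counted, and fewer controls are easier to exceed, so this number has no background.

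The number of the 55 genes called higher changed with the library left out, as did the share of all tested genes. Without control replicate 1 it was 28, where 7.21% of all tested genes were called higher. Without control replicate 3 it was 18, where 5.71% were. Without sorafenib replicate 1, 2 or 3 it was 15, 15 and 12, where 4.26%, 5.55% and 4.12% of all tested genes were called higher, and the members' median log2 fold change was 0.39, 0.43 and 0.41. Scaling by total counts alone called 29 of the 55 genes higher and 0 lower. It called 1496 of all tested genes higher and 826 lower, where TMM scaling called 1128 higher and 1250 lower. With total counts alone the median log2 fold change was 0.49 over the 55 genes and 0.07 over all tested genes.

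**Figure D2:**
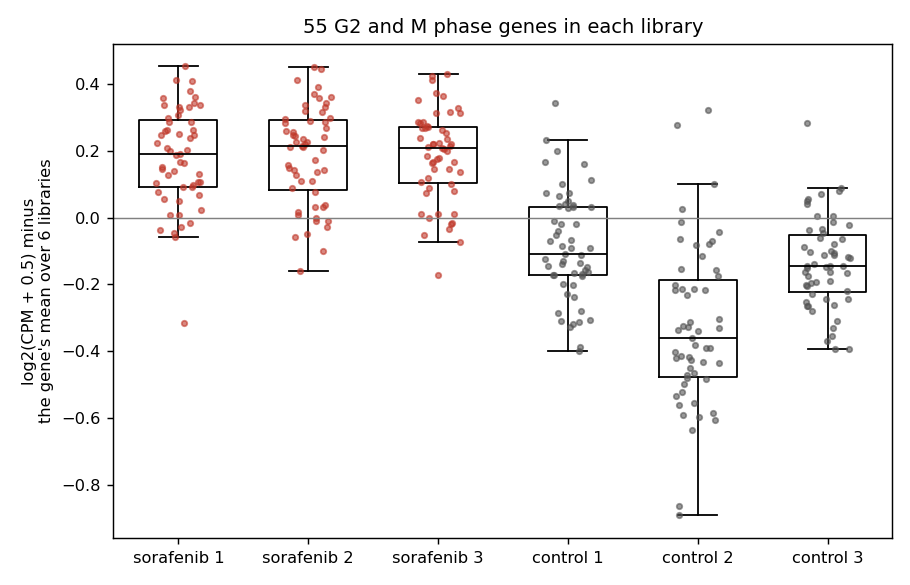
Level of each of the 55 G2 and M phase genes in each library, as log2(CPM + 0.5) minus that gene's mean over the 6 libraries (vertical axis); points are genes, boxes span the quartiles and the line is the median. The medians of the 3 sorafenib libraries lie at 0.19 to 0.21, those of control replicates 1 and 3 at -0.11 and -0.14, and that of control replicate 2 at -0.36.

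Because these genes are known to share promoter elements, their proximal promoters (250 bases before to 50 bases after the transcription start, RefSeq, GRCm38.p6) were searched on both strands for TTTGAA and TTCGAA, which are forms of the cell cycle genes homology region bound by MuvB, for CCAAT, the NF-Y box, and for GGCGGGAA, an E2F site. Of the 55 genes, 46 had a promoter in the table. TTTGAA was present in 32 of the 46 (69.6%), compared with 20.2% of all 27025 genes with a promoter and 14.5% of the 10400 tested genes with one. CCAAT was present in 35 of the 46 (76.1%), compared with 41.1% of all genes and 42.9% of tested genes. TTCGAA was present in 5 (10.9%), compared with 1.8% and 2.54%. GGCGGGAA was found in 0 of the 46, and in 2.52% of all and 4.72% of tested genes. One of the MuvB forms together with CCAAT occurred in 31 of the 46 (67.4%), compared with 8.61% of all and 7.05% of tested genes. Such pairs were found in 17 of the 25 genes called higher, in 13 of the 20 not called and in Kif4. TTTGAA was present in 15 of the 25 and 16 of the 20, CCAAT in 19 and 15, and TTCGAA in 5 and 0. In windows chosen after the data were seen, TTTGAA lay in the 50 bases after the start in 20 of the 46 (43.5%), compared with 1.89% of tested genes, and CCAAT in the 100 bases before it in 31 (67.4%), compared with 26.03%. A match is a run of letters and not a measured binding site.

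The promoters of the 3 genes with the largest rises, and of the gene with the largest p, are printed 5′ to 3′ on the gene's strand with every match in capitals (ATTGG is CCAAT on the other strand). Gtse1 (chr15:85859457-85859756, plus strand) has CCAAT matches that begin 99, 73 and 2 bases before the start, and a further annotated start downstream is not shown. Cdc25b (chr2:131186698-131186997, plus strand) has a CCAAT match 28 bases before the start and TTCGAA beginning 8 bases into the transcript. Kif18b (chr11:102925075-102925374, minus strand) has CCAAT matches 53 and 30 bases before the start and TTTGAA beginning 4 bases into the transcript. Pttg1 (chr11:43425932-43426231, minus strand), whose level hardly differed between the groups, has none of the 4 motifs in this window.
Gtse1: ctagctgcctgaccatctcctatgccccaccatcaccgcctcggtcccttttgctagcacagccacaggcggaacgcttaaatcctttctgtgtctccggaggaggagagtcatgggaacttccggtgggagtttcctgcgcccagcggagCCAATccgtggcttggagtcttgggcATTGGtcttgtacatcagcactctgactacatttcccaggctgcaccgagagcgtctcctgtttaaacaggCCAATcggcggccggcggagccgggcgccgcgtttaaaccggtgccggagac
Cdc25b: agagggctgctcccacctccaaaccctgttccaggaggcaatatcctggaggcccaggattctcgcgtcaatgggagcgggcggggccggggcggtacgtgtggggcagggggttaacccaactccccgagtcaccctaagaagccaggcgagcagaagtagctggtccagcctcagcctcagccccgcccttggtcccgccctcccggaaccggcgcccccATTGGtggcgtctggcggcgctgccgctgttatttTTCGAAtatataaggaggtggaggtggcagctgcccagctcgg
Kif18b: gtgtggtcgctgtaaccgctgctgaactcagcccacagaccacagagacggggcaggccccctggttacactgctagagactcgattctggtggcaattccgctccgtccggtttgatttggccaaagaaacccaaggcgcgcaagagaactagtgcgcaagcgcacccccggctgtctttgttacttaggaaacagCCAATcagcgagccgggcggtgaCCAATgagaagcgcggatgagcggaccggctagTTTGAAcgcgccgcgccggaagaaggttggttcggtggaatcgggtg
Pttg1: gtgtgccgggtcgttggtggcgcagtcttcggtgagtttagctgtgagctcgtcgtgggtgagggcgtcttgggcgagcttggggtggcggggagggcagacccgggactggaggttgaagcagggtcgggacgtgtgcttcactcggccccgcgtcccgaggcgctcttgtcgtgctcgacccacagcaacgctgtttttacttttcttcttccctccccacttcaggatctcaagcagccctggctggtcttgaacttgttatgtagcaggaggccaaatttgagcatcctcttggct

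Among the 10 cyclins, kinases and phosphatases of mitotic entry, 6 were called higher and 0 lower. Cdc25b, the phosphatase that removes inhibitory phosphates from Cdk1, had 20.1, 19.2 and 21.2 CPM in sorafenib libraries 1 to 3, against 12.6, 11.2 and 13 CPM in control libraries 1 to 3. Every sorafenib library lay well above every control library, and the level was 1.65-fold higher (adjusted p = 0.000728, log2 fold change 0.72 ± 0.10 SE). Its promoter, printed above, carries both a CCAAT and a TTCGAA match. Ccnb1, which encodes cyclin B1, had 15.7, 18.9 and 19.2 CPM in sorafenib libraries 1 to 3, against 13, 11.8 and 12.8 CPM in control libraries 1 to 3, and was 1.43-fold higher (adjusted p = 0.00759, log2 fold change 0.52 ± 0.11 SE). Sorafenib replicate 1 was the lowest of its group and still above the controls. Ccnb2, the other main B cyclin, was 1.41-fold higher (adjusted p = 0.0105), Ccna2, cyclin A2, 1.33-fold (adjusted p = 0.011) and the Aurora A kinase gene Aurka 1.42-fold (adjusted p = 0.0123). Cdk1 itself was close to the threshold, with 20.1 ± 1.42 CPM in sorafenib cells and 14.8 ± 2.9 CPM in control cells (log2 fold change 0.44 ± 0.14 SE, adjusted p = 0.0496), and its call was lost under 10 of 18 alternatives. Leaving out 1 library ended the call of Ccnb1 without sorafenib replicate 3 (adjusted p = 0.0549), Ccnb2 without sorafenib replicate 3 (adjusted p = 0.0639), Ccna2 without sorafenib replicate 2 or 3 (adjusted p up to 0.0603), Aurka without sorafenib replicate 3 (adjusted p = 0.0828) and Cdk1 without any 1 sorafenib replicate or control replicate 3 (adjusted p up to 0.195). It was kept for Cdc25b.

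The remaining 4 genes of mitotic entry were not called. Plk1, the Polo-like kinase, had 13.4 ± 2 CPM in sorafenib cells and 10.03 ± 1.98 CPM in control cells (log2 fold change 0.42 ± 0.16 SE, adjusted p = 0.107), and the groups overlapped. Ccnf, cyclin F, had 12.2 ± 1.17 CPM in sorafenib cells and 11.3 ± 0.758 CPM in control cells (log2 fold change 0.11 ± 0.11 SE, adjusted p = 0.545). Cdc25c, a further Cdk1 phosphatase, was detected at a low level of 1.93 ± 0.0635 CPM in sorafenib cells and 1.56 ± 0.16 CPM in control cells (adjusted p = 0.404). Cks2, a small subunit that binds Cdk1, had 38.7, 40.5 and 40.6 CPM in sorafenib libraries 1 to 3, against 36.6, 50.5 and 36.3 CPM in control libraries 1 to 3. The highest value of Cks2 was in control replicate 2 and the other 5 libraries lay together (log2 fold change -0.04 ± 0.12 SE, adjusted p = 0.855). Without control replicate 2 the log2 fold change was 0.27 for Plk1 (adjusted p = 0.114), 0.07 for Ccnf (adjusted p = 0.7) and 0.13 for Cks2 (adjusted p = 0.161).

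A mixed group of 5 held the transcription factor gene Foxm1, the growing-fraction markers Mki67 and Top2a, and also Gtse1 and Psrc1. Of these, 3 were called higher. Gtse1, a G2 and S phase expressed gene whose protein binds microtubules and p53, had 99, 92.8 and 99.2 CPM in sorafenib libraries 1 to 3, against 60.1, 55 and 56.5 CPM in control libraries 1 to 3. The sorafenib libraries did not come near the controls, and Gtse1 was 1.7-fold higher (adjusted p = 6.55e-05, log2 fold change 0.76 ± 0.07 SE), the largest rise of the 55 genes. Psrc1, a spindle protein gene, had 116, 117 and 118 CPM in sorafenib libraries 1 to 3, against 78.1, 77 and 76.8 CPM in control libraries 1 to 3, with little spread in either group, and was 1.52-fold higher (adjusted p = 0.000139, log2 fold change 0.60 ± 0.06 SE). Top2a, the topoisomerase that untangles chromatids, was 1.26-fold higher (adjusted p = 0.0338). Foxm1, the transcription factor that activates many of these genes, had 13.7 ± 1.77 CPM in sorafenib cells and 10.4 ± 2.4 CPM in control cells (log2 fold change 0.40 ± 0.17 SE, adjusted p = 0.137), and was not called. Mki67, which encodes the proliferation marker Ki-67, had 83.3, 63.9 and 70.3 CPM in sorafenib libraries 1 to 3, against 74.7, 43.9 and 70.8 CPM in control libraries 1 to 3. The groups overlapped for Mki67, control replicate 2 was the lowest, and the difference was not called (log2 fold change 0.20 ± 0.18 SE, adjusted p = 0.5). Without control replicate 2 the log2 fold change was 0.22 for Foxm1 (adjusted p = 0.159) and -0.0027 for Mki67 (adjusted p = 0.986). The call was lost, when 1 library was left out, for Top2a without any 1 sorafenib replicate or control replicate 3 (adjusted p up to 0.131). The call held for Gtse1 and Psrc1.

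In the spindle assembly checkpoint, 3 of 5 genes were called higher. Bub1b, which encodes BubR1, an inhibitor of the APC/C, had 28, 27.6 and 28.7 CPM in sorafenib libraries 1 to 3, against 21.8, 16.7 and 20.9 CPM in control libraries 1 to 3, and was 1.42-fold higher (adjusted p = 0.00815, log2 fold change 0.50 ± 0.11 SE). Mad2l1, the Mad2 gene, had 20.5, 21.6 and 18.5 CPM in sorafenib libraries 1 to 3, against 15.3, 15 and 12.8 CPM in control libraries 1 to 3, and was 1.4-fold higher (adjusted p = 0.00883, log2 fold change 0.49 ± 0.10 SE). The groups did not overlap for either gene. The kinase gene Bub1 was 1.37-fold higher (adjusted p = 0.0208), and the kinase gene Ttk, known as Mps1, had 5.56 ± 0.272 CPM in sorafenib cells and 4.52 ± 0.212 CPM in control cells (adjusted p = 0.167). Bub3, a partner of Bub1 and BubR1, had 83.9, 85 and 83.5 CPM in sorafenib libraries 1 to 3, against 86.1, 93 and 89.2 CPM in control libraries 1 to 3. The sorafenib values of Bub3 were all slightly below the controls, and the difference was not called (log2 fold change -0.09 ± 0.07 SE, adjusted p = 0.404) and had a log2 fold change of -0.06 without control replicate 2. With 1 library left out, the call was lost for Bub1 without sorafenib replicate 1 or 3 or control replicate 1 or 3 (adjusted p up to 0.108). It was kept for Bub1b and Mad2l1.

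Of 9 centromere and kinetochore genes, 4 were called higher. Knstrn, which encodes the kinetochore protein kinastrin, had 23.1, 21.3 and 21.2 CPM in sorafenib libraries 1 to 3, against 13.6, 17 and 13.8 CPM in control libraries 1 to 3, and was 1.48-fold higher (adjusted p = 0.00456, log2 fold change 0.57 ± 0.11 SE). Kif2c, a kinesin that removes microtubules from faulty attachments, had 8.27, 8.03 and 9.55 CPM in sorafenib libraries 1 to 3, against 6.46, 5.72 and 6.48 CPM in control libraries 1 to 3, and was 1.38-fold higher (adjusted p = 0.0274, log2 fold change 0.47 ± 0.13 SE). The groups did not overlap for these genes, though the gaps were narrower for Kif2c. Kif18b, a kinesin that shortens astral microtubules, was 1.64-fold higher (adjusted p = 0.0306) with a control value of 4.07 CPM in replicate 2 and of 7.69 and 6.77 CPM in replicates 1 and 3, so that without replicate 2 its log2 fold change was 0.49 (adjusted p = 0.0059). Nuf2, of the NDC80 complex that grips microtubules, was 1.4-fold higher (adjusted p = 0.0354), and its partner Ndc80 had 9.54 ± 1.26 CPM in sorafenib cells and 6.98 ± 1.24 CPM in control cells (adjusted p = 0.0775). Leaving out 1 library ended the call of Kif2c without any 1 sorafenib replicate or control replicate 3 (adjusted p up to 0.15), Kif18b without any 1 sorafenib replicate or control replicate 3 (adjusted p up to 0.111) and Nuf2 without sorafenib replicate 1 or 2 or control replicate 1 or 3 (adjusted p up to 0.147). The call held for Knstrn.

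The histone variant gene Cenpa (log2 fold change 0.17 ± 0.12 SE, adjusted p = 0.387), the motor gene Cenpe (log2 fold change 0.25 ± 0.15 SE, adjusted p = 0.312) and Cenpf (log2 fold change 0.36 ± 0.26 SE, adjusted p = 0.383) were not called. Cenpf had 3.4 CPM in control replicate 2, against 7.8 and 7.14 CPM in control replicates 1 and 3, and without that library the log2 fold change was 0.08 for Cenpf (adjusted p = 0.719) and 0.11 for Cenpe (adjusted p = 0.554). Hjurp, the chaperone that loads the Cenpa protein, had 233, 214 and 227 CPM in sorafenib libraries 1 to 3, against 257, 212 and 238 CPM in control libraries 1 to 3. The groups overlapped for Hjurp (log2 fold change -0.07 ± 0.08 SE, adjusted p = 0.639), which had the most counts of the 55 genes and whose span overlaps that of Mroh2a in RefSeq. The log2 fold change without control replicate 2 was -0.13 for Hjurp (adjusted p = 0.0766).

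The chromosomal passenger complex, in which Aurora B corrects attachments together with 3 partner proteins, had 1 of 4 genes called. Cdca8, which encodes the partner borealin, had 19.7, 21 and 21.2 CPM in sorafenib libraries 1 to 3, against 14.9, 15 and 14.7 CPM in control libraries 1 to 3, with every sorafenib library above the controls, and was 1.39-fold higher (adjusted p = 0.00367, log2 fold change 0.47 ± 0.09 SE). Birc5, which encodes survivin, had 9.97, 11.8 and 11.6 CPM in sorafenib libraries 1 to 3, against 11, 7.52 and 10.1 CPM in control libraries 1 to 3. The groups overlapped for Birc5 (log2 fold change 0.22 ± 0.15 SE, adjusted p = 0.347) and for the kinase gene Aurkb (log2 fold change 0.17 ± 0.10 SE, adjusted p = 0.261). Incenp, the scaffold of the complex, had 34.2 ± 2.84 CPM in sorafenib cells and 27.3 ± 4.53 CPM in control cells with no overlap and was not called (adjusted p = 0.0969). Leaving out control replicate 2 gave a log2 fold change of 0.08 for Birc5 (adjusted p = 0.634), 0.11 for Aurkb (adjusted p = 0.368) and 0.20 for Incenp (adjusted p = 0.0775). With any 1 library left out, the call was kept for Cdca8.

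**Figure D3:**
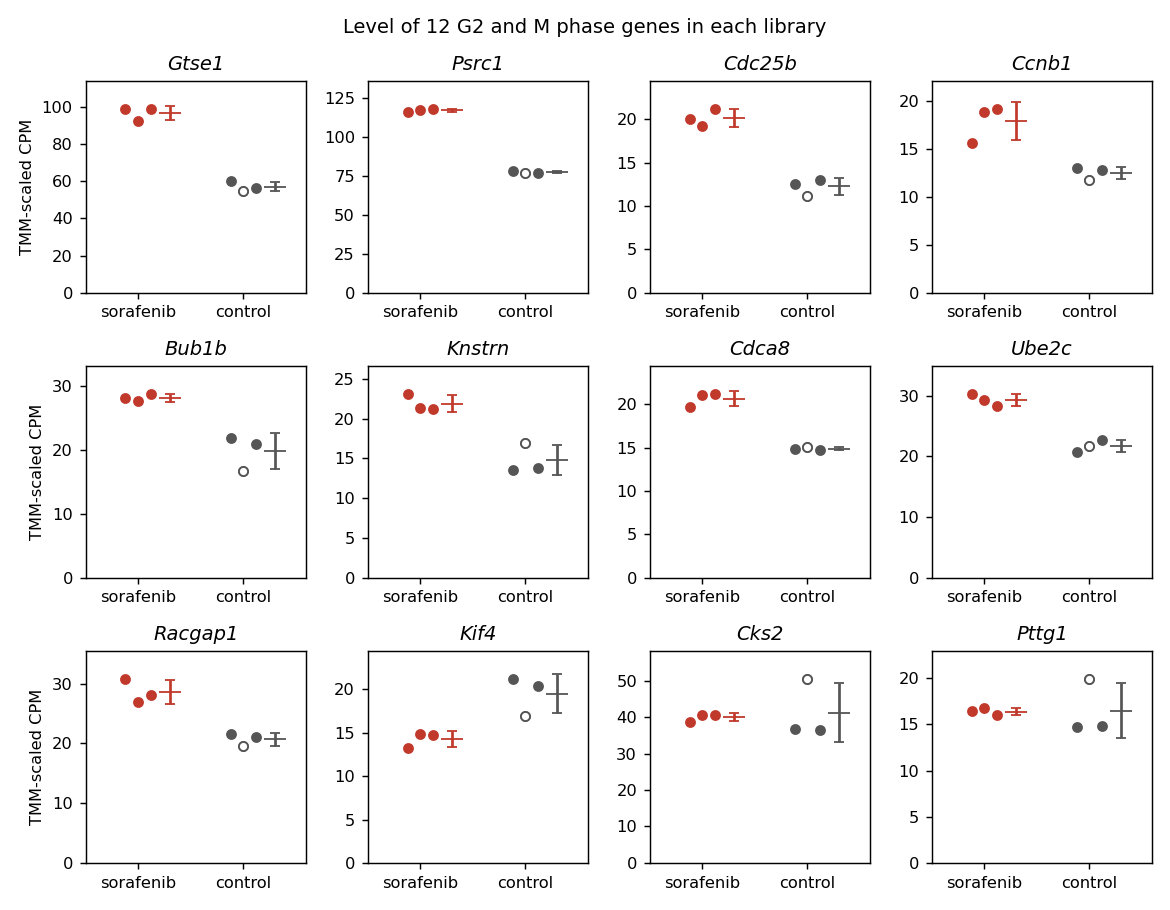
TMM-scaled CPM (vertical axis, from 0) of 12 G2 and M phase genes in each library; sorafenib libraries are in red and control libraries in grey, points run from replicate 1 to 3, the open circle is control replicate 2, and the bar gives the mean ± SD (n = 3). The groups do not overlap for 10 of the 12 genes, of which Kif4 alone is lower with sorafenib, while Cks2 and Pttg1 overlap and are highest in control replicate 2. Those 10 are called genes, and the groups do not overlap for any of the 30 called genes, so this number follows from the choice of genes. Of all tested genes 36.3% have groups that do not overlap.

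Of 9 spindle motor and microtubule genes, 5 were called higher and 1 lower. Ckap2l, a spindle pole protein gene, had 13.4, 12 and 11.6 CPM in sorafenib libraries 1 to 3, against 8.15, 9.18 and 8.5 CPM in control libraries 1 to 3, and was 1.43-fold higher (adjusted p = 0.00854, log2 fold change 0.52 ± 0.11 SE). Nusap1, which encodes a protein that bundles spindle microtubules, had 17.1, 17.4 and 17 CPM in sorafenib libraries 1 to 3, against 13.3, 10.9 and 13.2 CPM in control libraries 1 to 3, and was 1.38-fold higher (adjusted p = 0.0114, log2 fold change 0.46 ± 0.10 SE). Sorafenib values lay above all controls in both cases. Dlgap5, which encodes HURP, was 1.43-fold higher (adjusted p = 0.0372), Kif11, the motor that pushes spindle poles apart, 1.32-fold (adjusted p = 0.0199), and Tacc3, which stabilises kinetochore fibres, 1.28-fold (adjusted p = 0.0372). Hmmr (adjusted p = 0.0501), Tpx2, an activator of Aurora A (adjusted p = 0.0559), and Ckap2 (adjusted p = 0.0963) missed the threshold with sorafenib libraries above all controls. Ckap2 had 10.4, 8.79 and 7.07 CPM in sorafenib libraries 1 to 3, against 5.55, 7.03 and 6.85 CPM in control libraries 1 to 3, and sorafenib replicate 3 hardly exceeded the highest control. Without control replicate 2 these genes were called higher, with a log2 fold change of 0.31 for Hmmr (adjusted p = 0.0408), 0.21 for Tpx2 (adjusted p = 0.0334) and 0.50 for Ckap2 (adjusted p = 0.0248). The call was lost, when 1 library was left out, for Ckap2l without sorafenib replicate 1 (adjusted p = 0.0525), Nusap1 without sorafenib replicate 1 or 3 (adjusted p up to 0.0543), Dlgap5 without any 1 sorafenib replicate or control replicate 1 (adjusted p up to 0.151), Kif11 without sorafenib replicate 1 or 2 or control replicate 3 (adjusted p up to 0.102) and Tacc3 without any 1 sorafenib replicate or control replicate 1 (adjusted p up to 0.135).

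Kif4, a chromosome-arm kinesin, was the 1 gene of the 55 called lower, and its library values are given for that reason, after they were seen. Kif4 had 13.3, 14.8 and 14.7 CPM in sorafenib libraries 1 to 3, against 21.2, 16.9 and 20.3 CPM in control libraries 1 to 3. Each sorafenib value lay below each control value (log2 fold change -0.45 ± 0.11 SE, adjusted p = 0.016). The call was lost under 9 of 18 alternatives, among them total-count scaling and the FPKM values, and without any 1 library other than control replicate 2 (adjusted p up to 0.087), with a negative estimate under all 18. Its RefSeq span overlaps that of Gm52438.

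Of 6 genes of chromatid separation and mitotic exit, 4 were called higher. Ube2c, the ubiquitin-conjugating enzyme that works with the APC/C, had 30.3, 29.3 and 28.4 CPM in sorafenib libraries 1 to 3, against 20.7, 21.7 and 22.8 CPM in control libraries 1 to 3, and was 1.35-fold higher (adjusted p = 0.00434, log2 fold change 0.43 ± 0.08 SE). Cdca2, which brings a phosphatase to chromatin as mitosis ends, had 11.1, 11.6 and 11.4 CPM in sorafenib libraries 1 to 3, against 8.63, 6.1 and 7.99 CPM in control libraries 1 to 3, and was 1.5-fold higher (adjusted p = 0.0142, log2 fold change 0.58 ± 0.14 SE). The groups did not overlap for these genes. Cdc20, the APC/C activator that the checkpoint restrains, was 1.47-fold higher (adjusted p = 0.0155) and Espl1, the protease separase, 1.49-fold (adjusted p = 0.0221). Cdca3 had 16.8 ± 1.31 CPM in sorafenib cells and 13.3 ± 1.37 CPM in control cells without overlap and was not called (adjusted p = 0.0583). It was called higher without control replicate 2, with a log2 fold change of 0.40 for Cdca3 (adjusted p = 0.00768). Pttg1, the separase inhibitor securin, had 16.5, 16.7 and 16 CPM in sorafenib libraries 1 to 3, against 14.7, 19.9 and 14.8 CPM in control libraries 1 to 3. Control replicate 2 was the highest library for Pttg1, the others lay between 14.7 and 16.7 CPM, and the estimate was near 0 (log2 fold change -0.01 ± 0.12 SE, adjusted p = 0.975). The log2 fold change without control replicate 2 was 0.15 for Pttg1 (adjusted p = 0.253). With 1 library left out, the call was lost for Cdca2 without any 1 sorafenib replicate (adjusted p up to 0.065), Cdc20 without sorafenib replicate 2 or 3 or control replicate 3 (adjusted p up to 0.077) and Espl1 without any 1 sorafenib replicate or control replicate 3 (adjusted p up to 0.0907). The call held for Ube2c.

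Of 7 central spindle and cytokinesis genes, 3 were called higher and the other 4 also had estimates above 0. Racgap1, a subunit of centralspindlin, had 30.8, 26.9 and 28.1 CPM in sorafenib libraries 1 to 3, against 21.5, 19.5 and 21.1 CPM in control libraries 1 to 3, and was 1.38-fold higher (adjusted p = 0.00476, log2 fold change 0.47 ± 0.09 SE). Ect2, the exchange factor that activates RhoA at the furrow, had 8.91, 10.8 and 11.3 CPM in sorafenib libraries 1 to 3, against 8.18, 5.28 and 6.82 CPM in control libraries 1 to 3, and was 1.53-fold higher (adjusted p = 0.0278, log2 fold change 0.61 ± 0.17 SE). The groups did not overlap, but for Ect2 sorafenib replicate 1 was close to control replicate 1. The kinesin gene Kif20a was 1.33-fold higher (adjusted p = 0.047), a call lost under 10 of 18 alternatives. Kif23, the motor subunit of centralspindlin (adjusted p = 0.0858), the actin-binding anillin gene Anln (adjusted p = 0.15) and Prc1, which bundles central spindle microtubules (adjusted p = 0.286), were not called. Kif20b had 10.2, 8.63 and 8.5 CPM in sorafenib libraries 1 to 3, against 8.9, 6.04 and 8.87 CPM in control libraries 1 to 3, with overlapping groups (log2 fold change 0.20 ± 0.16 SE, adjusted p = 0.457). Leaving out control replicate 2 gave a log2 fold change of 0.04 for Kif20b (adjusted p = 0.848), 0.11 for Prc1 (adjusted p = 0.487) and 0.20 for Anln (adjusted p = 0.236). Leaving out 1 library ended the call of Ect2 without sorafenib replicate 2 or 3 or control replicate 3 (adjusted p up to 0.13) and Kif20a without any 1 sorafenib replicate or control replicate 1 or 3 (adjusted p up to 0.187). It was kept for Racgap1.

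**Figure D4:**
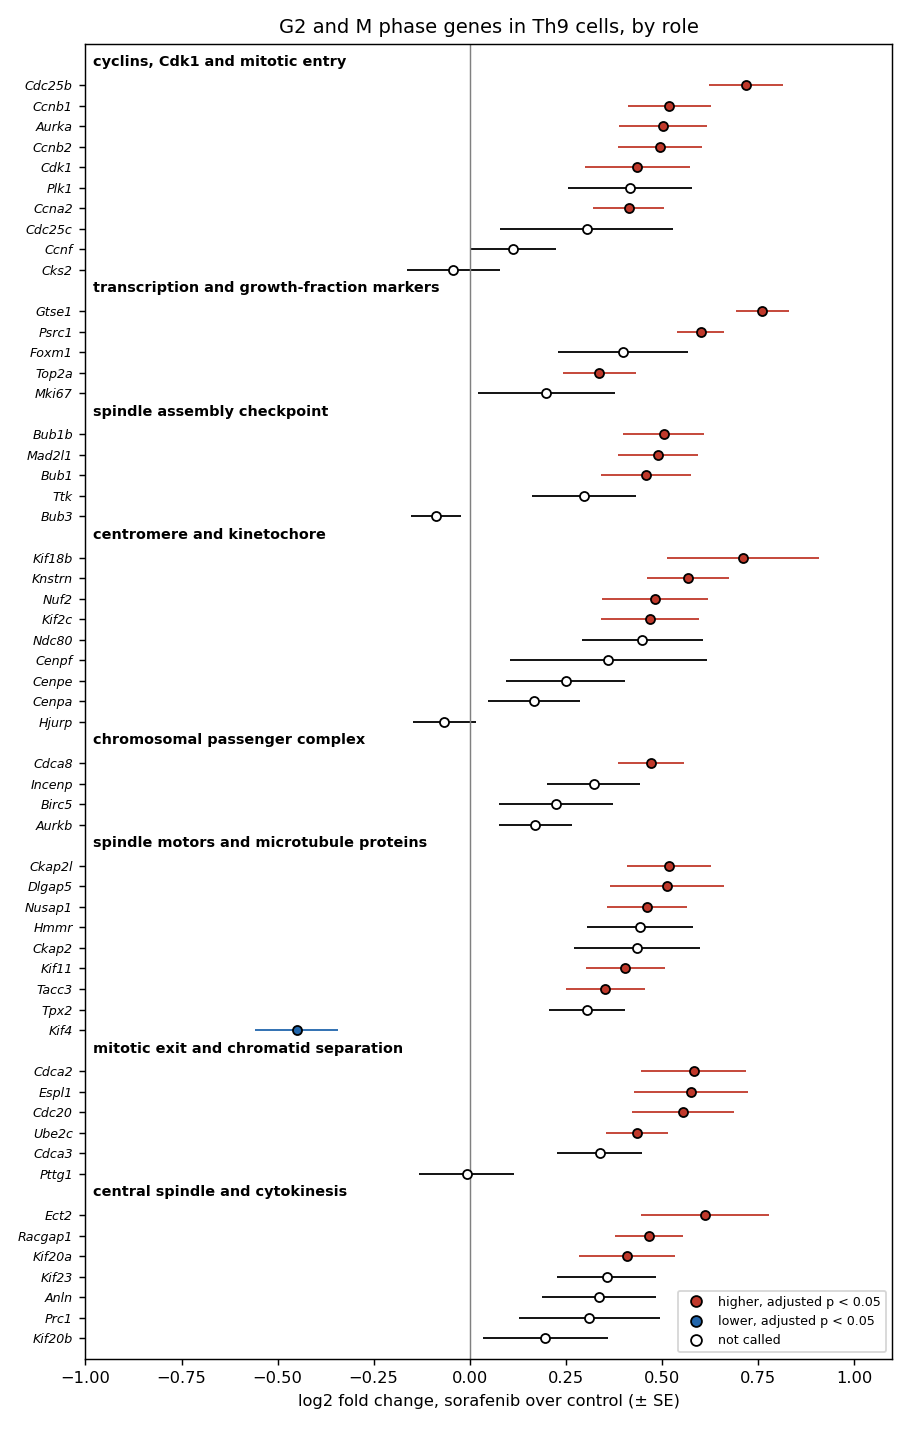
Log2 fold change (sorafenib over control, horizontal axis) with its standard error for each of the 55 G2 and M phase genes, ordered within 8 roles; red points were called higher, the blue point (Kif4) lower, and open points were not called. Each role holds called genes, and 50 of 55 estimates lie above 0, against 48.3% over all tested genes.

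Levels per gene length were compared with the deposited FPKM. Averaged over the 6 libraries, the highest of the 55 were Cks2 (58.2 FPKM), Psrc1 (55.2 FPKM), Bub3 (38.7 FPKM), Gtse1 (28.6 FPKM), Ube2c (27.5 FPKM), Hjurp (27.1 FPKM) and Top2a (24.4 FPKM). Of these 7 abundant genes Psrc1, Gtse1, Ube2c and Top2a were called higher, while Cks2, Bub3 and Hjurp had estimates slightly below 0 and were not called. The lowest were Cenpf (0.62 FPKM), Cdc25c (0.826 FPKM) and Cenpe (1.14 FPKM), none of which was called. The median of the 55 genes was 4.85 FPKM, against 5.38 FPKM over all tested genes. Of the 27 genes above that member median 16 were called higher, and of the 28 at or below it 13 were. Across the 55 genes the log2 fold change and the log2 mean FPKM had a Pearson r of -0.13 and a Spearman rho of -0.06, given as a description of genes that share the same libraries. The sum of FPKM over the 55 genes was 539, 549 and 545 in sorafenib libraries 1 to 3, against 441, 385 and 421 in control libraries 1 to 3.

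Other genes of cell division were counted in lists that hold none of the 55. The shares to read them against are the 8.51% of all tested genes called higher and the 9.43% called lower. Of 161 such genes outside S phase 25 were called higher and 3 lower, with a median log2 fold change of 0.13. Of 47 S phase genes 7 were called higher and 2 lower, with a median of 0.17. Among 48 other spindle, centrosome and cytokinesis genes 11 rose and 0 fell. Melk, a mitotic kinase gene, rose 1.84-fold (adjusted p = 0.000588), and Gpsm2, which orients the spindle, rose 1.59-fold (adjusted p = 0.000724). Among 31 other centromere and kinetochore genes 6 rose and 1 fell, with Spc25, of the NDC80 complex, 1.69-fold higher (adjusted p = 0.0027) and Pmf1, of the MIS12 complex, 1.44-fold higher (adjusted p = 0.00516). Among 21 condensin and cohesin genes 2 were called higher (9.52%) and 1 lower, near or under those shares, and the list's median was -0.01. Cdca5, the cohesin protector sororin, was 1.44-fold higher (adjusted p = 0.0117) and Rad21, the cohesin subunit that separase cleaves, was lower by 1.19-fold (adjusted p = 0.035). Among 17 genes of the APC/C and its regulators 1 was called, the APC/C inhibitor gene Fbxo5, 1.29-fold higher (adjusted p = 0.0387), and the list's median was 0.02. The call was lost, when 1 library was left out, for Cdca5 without sorafenib replicate 1 or control replicate 3 (adjusted p up to 0.065), Rad21 without any 1 sorafenib replicate or control replicate 3 (adjusted p up to 0.169) and Fbxo5 without any 1 sorafenib replicate or control replicate 1 or 3 (adjusted p up to 0.164). The call held for Melk, Gpsm2, Spc25 and Pmf1. No test of the difference between these lists and the 55 genes was made.

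Of 22 genes that control mitotic entry, 4 were called higher (18.2%, where 8.51% of all tested genes were), 1 was called lower and 17 were not called. Gadd45b, a stress gene whose family can restrain Cdk1, had 87.2 ± 12 CPM in sorafenib cells and 40.9 ± 10.4 CPM in control cells, and rose 2.13-fold (adjusted p = 0.00148). The checkpoint kinase gene Chek2 rose 1.49-fold (adjusted p = 0.00254). Cdkn1a, the p53 target that encodes the inhibitor p21, had 647, 642 and 638 CPM in sorafenib libraries 1 to 3, against 606, 712 and 634 CPM in control libraries 1 to 3, with overlapping groups (log2 fold change -0.02 ± 0.08 SE, adjusted p = 0.917). Among the 22 regulators of the DREAM, E2F and NF-Y groups 1 was called, the activator gene E2f2, 1.34-fold higher (adjusted p = 0.0356). Mybl2, which encodes B-Myb, had 14.4 ± 1.23 CPM in sorafenib cells and 11 ± 2.57 CPM in control cells (log2 fold change 0.40 ± 0.16 SE, adjusted p = 0.124), and Lin9, of the MuvB core, had 6.98 ± 0.332 CPM in sorafenib cells and 5.49 ± 1.14 CPM in control cells (log2 fold change 0.34 ± 0.16 SE, adjusted p = 0.187). Neither was called. The repressor genes E2f4 (log2 fold change -0.12 ± 0.07 SE, adjusted p = 0.32), Rbl1 (log2 fold change 0.04 ± 0.12 SE, adjusted p = 0.85) and Rbl2 (log2 fold change 0.27 ± 0.09 SE, adjusted p = 0.0717) were not called either. Without control replicate 2 the log2 fold change was 0.22 for Mybl2 (adjusted p = 0.134), 0.19 for Lin9 (adjusted p = 0.332), 0.05 for Cdkn1a (adjusted p = 0.472) and -0.09 for Rbl1 (adjusted p = 0.438). It was 0.17 for Rbl2 (adjusted p = 0.0291), which was then called higher. In S phase, Tk1, a thymidine kinase gene, was 1.72-fold higher (adjusted p = 0.000813) and Ccne2, cyclin E2, was lower by 1.79-fold (adjusted p = 0.00113). With 1 library left out, the call was lost for E2f2 without any 1 sorafenib replicate or control replicate 3 (adjusted p up to 0.128). It was kept for Gadd45b, Chek2, Tk1 and Ccne2.

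**Figure D5:**
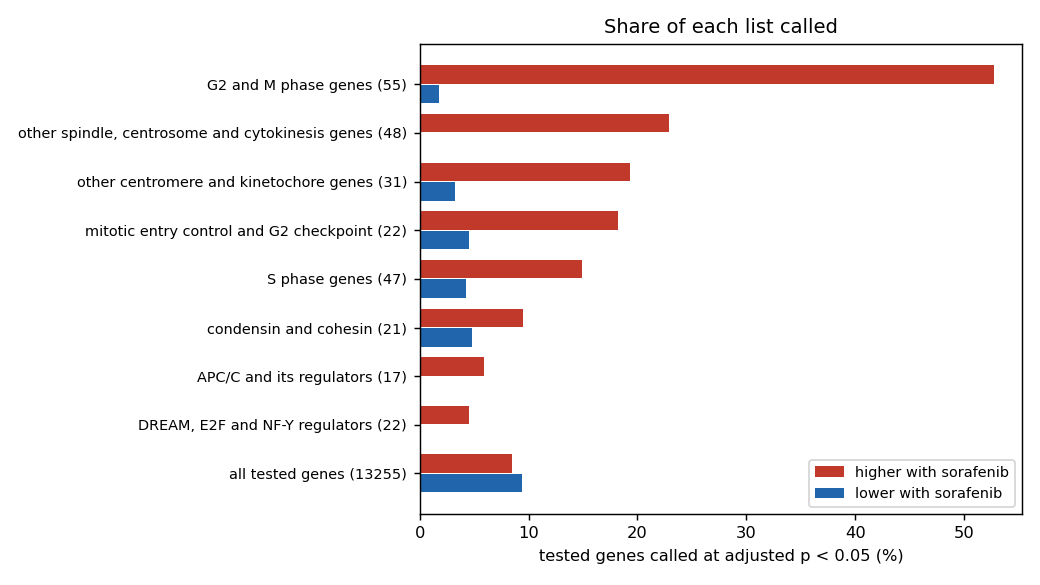
Percentage of tested genes called at an adjusted p under 0.05 (horizontal axis), higher in red and lower in blue, for the G2 and M phase genes, 7 lists of other cell division genes and all tested genes, with the number tested in parentheses. The G2 and M phase genes reach 52.7% higher, the other lists 4.55% to 22.9%, and all tested genes 8.51%.

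Levels of markers of other cells are given from the same comparison, in which 8.51% of all tested genes were called higher and 9.43% lower. Markers that did not pass the filter on low counts were not tested and could not be called. Of the 2 CD8 T cell markers, 1 rose and 0 fell, and their sum was 8.89 to 11.1 CPM in sorafenib and 6.17 to 7.09 CPM in control libraries. Of 10 measured B cell markers 8 were tested, and 6 of these rose and 1 fell. The sum of the 10 was 38.7 to 41.3 CPM in sorafenib and 27.9 to 36.1 CPM in control libraries. Ms4a1, a defining B cell marker, had 1, 2 and 2 counts in sorafenib libraries 1 to 3, against 0, 1 and 0 counts in control libraries 1 to 3. Of 9 myeloid markers 4 were tested, and 1 of these rose and 0 fell. The 9 summed to 12.7 to 13.5 CPM in sorafenib and 7.69 to 11.5 CPM in control libraries. Of 5 measured neutrophil markers 3 were tested, and 0 of these rose and 2 fell. The 5 summed to 2.58 to 2.96 CPM in sorafenib and 9.38 to 11.3 CPM in control libraries. Of 6 stromal and endothelial markers 3 were tested, and 0 of these rose and 1 fell. The 6 summed to 27.9 to 29.6 CPM in sorafenib and 51.8 to 54.4 CPM in control libraries. Nearly all of that sum was the gene that fell, Pecam1, which averaged 27.1 CPM in sorafenib and 50.8 CPM in control cells. Ly6g, a defining neutrophil marker, had 1, 2 and 0 counts in sorafenib libraries 1 to 3, against 125, 120 and 125 counts in control libraries 1 to 3. Cxcr2, the other neutrophil marker that fell, averaged 2.45 CPM in sorafenib and 6.39 CPM in control cells. The rest were near absent in control libraries 1 to 3, with 0, 0 and 0 counts of Elane and 0, 1 and 0 of Ltf. Mpo averaged 0.33 CPM in sorafenib and 0.27 CPM in control cells. Of 3 mast cell and basophil markers only Kit was tested, and it was not called. The 3 summed to 18.2 to 19.4 CPM in sorafenib and 16.7 to 18.04 CPM in control libraries. Nearly all of that sum was Kit, which averaged 18.6 CPM in sorafenib and 17.6 CPM in control cells. The 6 erythroid and platelet markers were not tested, and summed to 0.179 to 0.469 CPM in sorafenib and 0.161 to 0.581 CPM in control libraries. Of the 6 T cell markers 0 rose and 4 fell, and of 5 Th9 cell markers 2 rose and 0 fell. The part of any other cells in the levels of the G2 and M phase genes was not tested. Mitochondrially encoded genes took 2.37% to 2.69% of counts in sorafenib and 2.35% to 3.03% in control libraries.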

How the data were processed

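The authors deposited whole-number counts and FPKM values per gene for 6 libraries, grouped here by the sample titles. The tools named in the submitters' processing notes are HISAT2, HTSeq, fastp, DESeq2 and R 3.2.0, and the build is GRCm39, with no role, strand setting or rule for multi-mapped reads stated. RefSeq spans of 10 of the 55 genes overlap another gene of the table, 7 of them called, so their values are uncertain. The 7 are Ccna2, Aurka, Cdc20, Kif20a, Nusap1 and Ect2, called higher, and Kif4, called lower. The deposited FPKM equalled the counts scaled by column total and a gene length.

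The 55 members and all lists were chosen with earlier results of these data known. Genes were filtered with filterByExpr, scaled with TMM and tested with edgeR 4.0.16 in R 4.3.3 (quasi-likelihood, robust, no covariate beside group, residual degrees of freedom 4, common biological coefficient of variation 10.9%), adjusted over all 13255 tested genes at a threshold of 0.05. Log2 fold changes are sorafenib over control, standard errors derive from the F statistic, and a fold of a lower gene is its inverse. Library values are given, in each role, for the 2 called genes with the smallest adjusted p and the gene with the largest p, and in each other list the 2 called genes with the smallest adjusted p are named, with 6 regulators named whatever their result. Promoter sequences are from RefSeq, GRCm38.p6, and 46 of 55 members matched by symbol. Alternatives were other scalings and filters, leaving out single libraries, a block for the replicate number, limma-voom, DESeq2 1.42.0 and limma-trend on FPKM (limma 3.58.1), and a gene length correction.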

Additional observations from a re-analysis of the deposited data

How the results depend on the processing

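Every one of the 30 calls among the 55 genes kept its direction under all 18 alternative fits, and 8 of the 30 were called under all of them, while 9 of the 25 uncalled genes were called under at least 1. With each library left out, the number of the 55 genes called ranged from 12 to 34, and that of all tested genes from 1243 (9.15%) to 4325 (31.8%). Of the 208 other cell division genes the fewest, 15, were called without sorafenib replicate 1, where 9.51% of all tested genes were. The most, 62, were called without control replicate 2, where 31.8% of all tested genes were. The main fit called 37 of the 208, where 17.9% of all tested genes were called. Of these 37, 32 were higher (15.4% of the 208, beside 8.51% of all tested genes) and 5 lower. The median log2 fold change of the 55 ranged from 0.32 to 0.47 with each library left out. On log2(FPKM + 1) with no filter, 14 of the 55, 24 of the 208 and 1423 of all genes were called. At an adjusted p under 0.01, 11 of the 55 and 1227 of all genes were called. With the gene length trend removed 33 of the 55, 56 of the 208 and 3193 of all tested genes (24.1%) were called. The summed level of the 55 genes in sorafenib cells was 1602 CPM by total counts, and without Hjurp, the member with the most counts, the sums were 1336 CPM in sorafenib and 1041 CPM in control cells. TTTGAA was found in 32.6% of member promoters within the 250 bases before the start, since many matches lie after it.

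Same-numbered libraries had correlations of -0.06, 0.15 and 0.10 in their deviations from the group means, so the numbers were not taken as pairs. With the replicate block 29 of the 55 genes were called, 28 higher and 1 lower, of which 26 were among the 29 called higher without it, and 35 of the 208 and 2139 of all genes were called. With 3 libraries per group and a log2 standard error up to 0.26 among the 55 genes, a gene not called is not shown to be unaltered.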

Other observations

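The 55 genes did not all follow one pattern among the controls. In control replicate 2, 40 of the 55 were lower than in control replicates 1 and 3, and 10 were higher than in both. Among those 10 were Cks2, Pttg1 and Bub3, which were not called with sorafenib, and Knstrn, Bub1, Ckap2l and Cdca8, which were called higher. The shares of all tested genes lying lowest or highest in control replicate 2 were not counted. The median coefficient of variation of the 55 genes was 7% over the sorafenib libraries and 11.8% over the control libraries, and 5.44% over control replicates 1 and 3 alone.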
